A study of Mus musculus with 9 samples.

Results

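The cytokines and cytokine receptors of the interferon gamma and IL-4 axes were followed in thymic invariant natural killer T (iNKT) cells. Samples labelled as knocked out for the histone demethylase Utx were set beside wildtype ones. The set comprised 10 genes chosen by name: Ifng, Il4, Il13, Il2, Il10, Csf2 and Il17a, which encode secreted cytokines, and Ifngr1, Ifngr2 and Il4ra, which encode receptor chains. Every probe set annotated with 1 of these genes alone was used, which gave 13 of the 34945 such probe sets on the array (45101 probe sets in all). A further probe set that Il2 shares with another gene was left out. The RNA was from sorted thymic iNKT cells of 8- to 12-week-old mice, in 4 samples labelled Utx knock out (KO1 to KO4) and 5 labelled Utx wildtype (WT1 to WT5), matched for sex and age per the labels and given there as biological replicates. The titles name 3 batches, which were unequal in genotype: batch 1 held KO1 and WT1, batch 2 held KO2, KO3, KO4 and WT2, and batch 3 held WT3, WT4 and WT5. The means of deleting Utx, the cells in which it was deleted, the sort gate and the sex of the mice are not stated.

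These cells carry a nearly invariant T cell receptor for lipids on CD1d and are known for releasing both interferon gamma and IL-4 within hours of stimulation from transcripts that are already present at rest. Interferon gamma, the signature product of the NKT1 subset, binds a receptor built of a ligand-binding chain (Ifngr1) and a signalling chain (Ifngr2), which act through the kinases Jak1 and Jak2. IL-4, the signature product of the NKT2 subset, binds the Il4ra chain, which signals through Stat6 and also forms part of the IL-13 receptor. In mouse helper T cells the level of the Ifngr2 chain is known to set how strongly a cell responds to interferon gamma, and it is low in type 1 helper cells. Il4, Il13 and Csf2 lie in the same cytokine cluster of the genome.

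The upstream sequences of 4 members are shown because the differences described further on, between the genotypes or between the batches, rest on these genes. They are the 250 bases before the RefSeq start of transcription (build GRCm38.p6), and 9 of the 10 members had an entry, all but Il10. Capitals mark matches on either strand to 4 motifs, GATA, the NFAT core GGAAA, the AP-1 site TGANTCA and the T-box motif TCACAC. In order, Ifng lies on the plus strand at chr10:118440796-118441045, Ifngr2 on the plus strand at chr16:91546809-91547058, Il13 on the minus strand at chr11:53634703-53634952, and the more upstream of the 2 Il4 starts on the minus strand at chr11:53618666-53618915.
Ifng: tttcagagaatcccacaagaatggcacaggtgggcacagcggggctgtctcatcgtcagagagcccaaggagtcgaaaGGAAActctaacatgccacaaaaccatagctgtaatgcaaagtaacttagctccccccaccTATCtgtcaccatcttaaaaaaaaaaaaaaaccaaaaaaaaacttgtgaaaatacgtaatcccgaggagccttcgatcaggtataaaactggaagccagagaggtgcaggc
Ifngr2: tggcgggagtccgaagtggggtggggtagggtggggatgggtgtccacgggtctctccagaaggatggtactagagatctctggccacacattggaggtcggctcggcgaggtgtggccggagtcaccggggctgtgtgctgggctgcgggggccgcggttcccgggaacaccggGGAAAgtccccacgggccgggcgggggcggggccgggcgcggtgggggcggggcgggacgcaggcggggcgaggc
Il13: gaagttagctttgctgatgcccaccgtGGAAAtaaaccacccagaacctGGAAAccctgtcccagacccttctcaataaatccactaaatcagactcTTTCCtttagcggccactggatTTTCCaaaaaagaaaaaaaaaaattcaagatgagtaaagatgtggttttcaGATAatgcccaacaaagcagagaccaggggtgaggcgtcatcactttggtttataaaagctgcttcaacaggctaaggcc
Il4: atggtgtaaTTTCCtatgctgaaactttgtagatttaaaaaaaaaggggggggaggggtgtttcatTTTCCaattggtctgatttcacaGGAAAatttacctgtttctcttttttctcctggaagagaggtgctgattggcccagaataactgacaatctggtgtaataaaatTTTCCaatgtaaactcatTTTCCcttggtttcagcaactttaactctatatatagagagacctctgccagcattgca
The NFAT core was found 5 times before this Il4 start and 4 times before the Il13 start, once each for Ifng and Ifngr2, and 0 times before the other Il4 start. It was present for 7 of the 9 members, and 55.6% of all 32851 promoter entries hold it. Members were counted by gene, with a match at either of the 2 Il4 starts enough, whereas each share is of single entries. GATA was found for 5 of the 9 (53.6% of all entries) and AP-1 for 1, Il17a (6.75% of all entries). The T-box motif was found for 0 of the 9, where 12.3% of all entries hold it, and no matches overlapped. The Ifngr2 stretch was 74.0% G and C, and the Ifng stretch 45.2%. These are matches of letters in a short window and say nothing of binding.

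Levels are the deposited log2 values, in which a difference of 1 is a doubling. Differences (KO minus WT) were fitted within batches 1 and 2, with the 3 wildtype arrays of batch 3 adding to the estimate of the spread, and p-values are limma's, adjusted over all 45037 probe sets other than controls. In knockout cells Ifngr2 rose on both of its probe sets, by 1.81-fold and 1.84-fold, and no other member passed. Ifng was lower by 4.67-fold, the largest difference of the set, but its adjusted p of 0.0536 lay just beyond the threshold of 0.05. Of all probe sets 6.4% passed, made up of 3.73% that were higher and 2.67% that were lower, so that 2 of 13, both of 1 gene, is too small a count to set the members apart. At an unadjusted p under 0.05 there were 6 of 13 member probe sets, against 28.2% of all. The median difference was 0.13 over the members and -0.003 over all probe sets. On 6 of the 13 probe sets the knockout and wildtype values did not overlap, which was so for 32.1% of all probe sets.

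**Figure D1:**
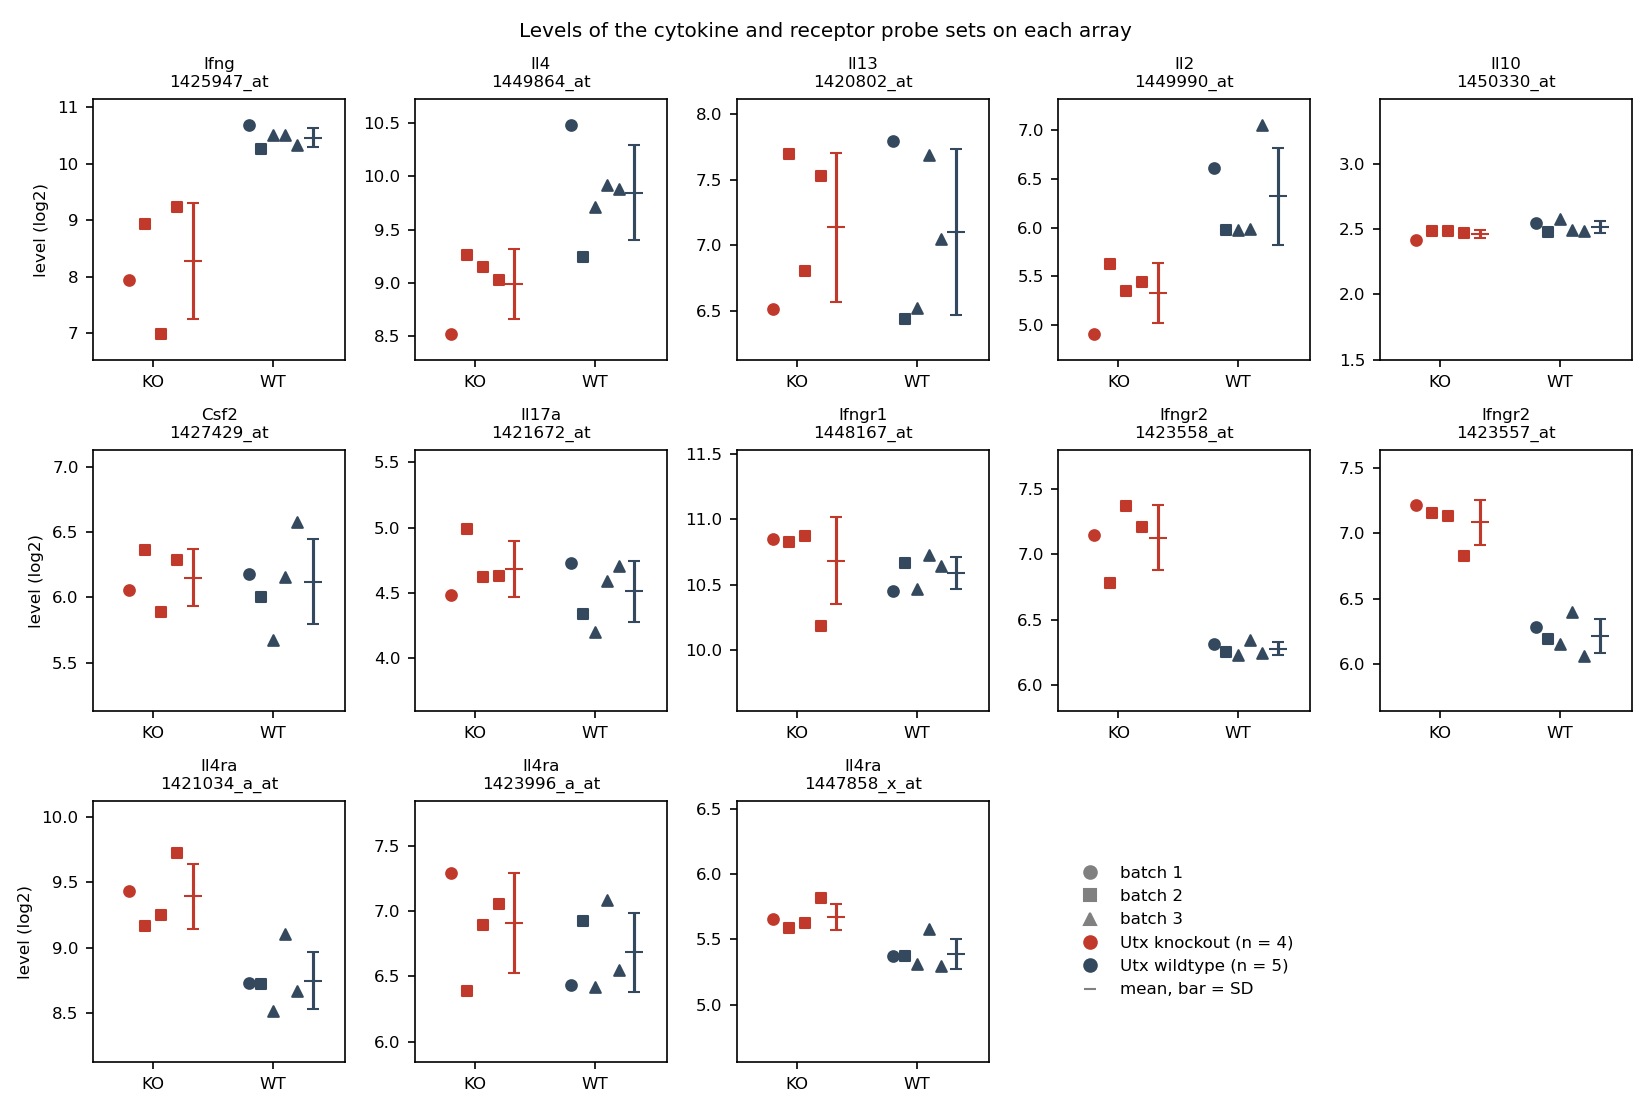
Level (log2) of each of the 13 probe sets on every array, with Utx knockout left of Utx wildtype, symbols for the 3 batches, and the mean with its SD beside each group. The knockout arrays all lie above the wildtype arrays for both Ifngr2 probe sets and all below them for Ifng and Il2. The vertical axes span different ranges of levels.

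Ifng, the interferon gamma gene, was measured by 1 probe set, whose mean level lay at the 85.0th percentile of all probe sets. It read 7.95, 8.93, 6.98 and 9.24 in KO1 to KO4, against 10.69, 10.26, 10.51, 10.51 and 10.33 in WT1 to WT5. Every knockout array was below every wildtype array, and the knockout arrays were much more spread out. The mean was 8.27 ± 1.03 in knockout cells (SD, n = 4) and 10.46 ± 0.17 in wildtype cells (SD, n = 5). The fitted difference was -2.22 (SE 0.57, 95% interval -3.52 to -0.93, unadjusted p = 0.00388, adjusted p = 0.0536). It was -2.74 in batch 1 and -1.88 in batch 2. The fit takes 1 spread for both genotypes, although the knockout arrays were more spread out, and batch 3 adds wildtype arrays only. Without batch 3 the SE was 0.64. The adjusted p passed 0.05 in 12 of 23 other settings, some of them without batch as a fixed factor. Among the 12 were a filter at the 25th percentile of the level (0.0455) and the same filter with 1 probe set per gene (0.0418). It also passed without KO2 (0.0486), KO3 (0.0399) or KO4 (0.0461). It did not pass without batch 3 (0.130), with array weights (0.145) or without WT3, WT4 or WT5 (0.0824 to 0.0847). Nor did it pass in batch 2 alone or without WT2, WT1 or KO1.

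Il4, measured by 1 probe set at the 84.8th percentile of level, did not pass, and its difference was further from 0 in batch 1 than in batch 2. Its levels were 8.52, 9.26, 9.15 and 9.02 in KO1 to KO4, against 10.48, 9.24, 9.71, 9.92 and 9.88 in WT1 to WT5. WT2 lay among the knockout arrays, and the other 4 wildtype arrays lay above all of them. The means were 8.99 ± 0.33 in knockout cells (SD, n = 4) and 9.85 ± 0.44 in wildtype cells (SD, n = 5). The fitted difference was -0.84 (SE 0.35, 95% interval -1.63 to -0.05, adjusted p = 0.157). It was -1.96 between the arrays of batch 1, which has no replicate check, and -0.09 in batch 2, where WT2 is the lone wildtype array. A test of the difference between the 2 batches gave an unadjusted p of 0.000444 and an adjusted p of 0.155, and 0.02% of all probe sets passed that test. Leaving out 1 of these arrays repeats the batch values by construction. Without WT2 the difference is KO1 against WT1 alone (-1.96). Without WT1 or KO1 it is that of batch 2, against the lone WT2 (-0.09).

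Il13 encodes a cytokine closely related to IL-4 and lies beside Il4. It read 6.51, 7.70, 6.80 and 7.53 in KO1 to KO4, against 7.80, 6.44, 6.52, 7.69 and 7.05 in WT1 to WT5. The groups overlapped over nearly their whole range. The fitted difference was 0.03 (95% interval -1.13 to 1.19, adjusted p = 0.976). It turned sign between batches, with -1.29 in batch 1 and 0.91 in batch 2 (unadjusted p = 0.0187 for the difference between batches, adjusted p = 0.301).

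Il2, the T cell growth factor gene, lay at the 47.7th percentile of level. It read 4.90, 5.63, 5.35 and 5.44 in KO1 to KO4, against 6.62, 5.98, 5.97, 5.98 and 7.05 in WT1 to WT5. All knockout arrays were below all wildtype arrays, by a narrow margin against WT2, WT3 and WT4. The difference was -0.99 (SE 0.37, 95% interval -1.83 to -0.15) and did not pass (adjusted p = 0.125). It was -1.71 in batch 1 and -0.51 in batch 2, and -0.51 without WT1 or KO1 (adjusted p = 0.442).

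The 3 remaining cytokine genes did not pass. Csf2, which encodes the granulocyte and macrophage growth factor GM-CSF, spanned 5.89 to 6.36 in knockout and 5.68 to 6.58 in wildtype cells (difference 0.06, 95% interval -0.55 to 0.67, adjusted p = 0.911). Il17a, the signature cytokine of NKT17 cells, spanned 4.49 to 4.99 in knockout and 4.20 to 4.73 in wildtype cells (difference 0.14, 95% interval -0.37 to 0.66, adjusted p = 0.716). Il10, an inhibitory cytokine, spanned 2.42 to 2.48 in knockout and 2.48 to 2.58 in wildtype cells (difference -0.05, 95% interval -0.37 to 0.27, adjusted p = 0.838). Csf2 lay at the 51.3rd percentile of level, Il17a at the 25.7th and Il10 at the 1.40th. The deposited values carry no detection call, so whether these probe sets were above background is not known.

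Among the receptors, Ifngr2, the signalling chain of the interferon gamma receptor, rose. On the probe set of lower level it read 7.22, 7.15, 7.13 and 6.82 in KO1 to KO4, against 6.28, 6.19, 6.15, 6.39 and 6.06 in WT1 to WT5. On the probe set of higher level it read 7.15, 6.78, 7.37 and 7.21 in KO1 to KO4, against 6.32, 6.25, 6.23, 6.34 and 6.24 in WT1 to WT5. Neither probe set had a knockout array as low as any wildtype array. The fitted differences were 0.88 (SE 0.18, 95% interval 0.48 to 1.28, adjusted p = 0.0275) and 0.85 (SE 0.19, 95% interval 0.42 to 1.29, adjusted p = 0.0393). Unlike for Il4 and Il13, batches 1 and 2 gave nearly the same size, 0.93 and 0.85 on the probe set of lower level and 0.83 and 0.87 on the other. The size was stable when 1 array was left out (0.85 to 0.94 and 0.78 to 0.95), while the calls were not. The call of the probe set of lower level ended without WT1, WT2, WT3, WT5, KO1 or KO3 (adjusted p 0.0506 to 0.157), and that of the other ended without any array other than KO2 (adjusted p 0.0631 to 0.270). Both calls also ended without the wildtype arrays of batch 3, where the SEs were 0.20 and 0.23 (adjusted p 0.0907 and 0.120). Because the probe sets read the same RNA of 1 gene, they are not separate evidence of the genotype.

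Ifngr1, the ligand-binding chain of the same receptor, did not pass. At the 92.5th percentile of level, it read 10.85, 10.83, 10.88 and 10.19 in KO1 to KO4, against 10.45, 10.67, 10.47, 10.72 and 10.65 in WT1 to WT5. Apart from KO4, which was below every wildtype array, the knockout arrays were above them. The difference was 0.13 (SE 0.23, 95% interval -0.40 to 0.67, adjusted p = 0.746). Batch 1 gave 0.40 and batch 2 gave -0.04.

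Il4ra, the chain that IL-4 and IL-13 receptors share, was measured by 3 probe sets whose differences were unequal in size. On the one of highest level it read 9.43, 9.16, 9.25 and 9.73 in KO1 to KO4, against 8.73, 8.73, 8.52, 9.10 and 8.67 in WT1 to WT5. Every knockout array was above every wildtype array, with KO2 only just above WT4. The difference of 0.67 did not pass (SE 0.23, 95% interval 0.15 to 1.20, adjusted p = 0.105), and it was 0.70 in batch 1 and 0.65 in batch 2. It was 0.39 after another quantile normalization. On the probe set of lowest level the groups, 5.58 to 5.82 in knockout and 5.30 to 5.58 in wildtype cells, came close without overlapping (difference 0.29, adjusted p = 0.271). On the remaining probe set they overlapped, at 6.39 to 7.29 in knockout and 6.42 to 7.09 in wildtype cells (difference 0.26, adjusted p = 0.618), and batches 1 and 2 had opposite signs (0.86 and -0.14).

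**Figure D2:**
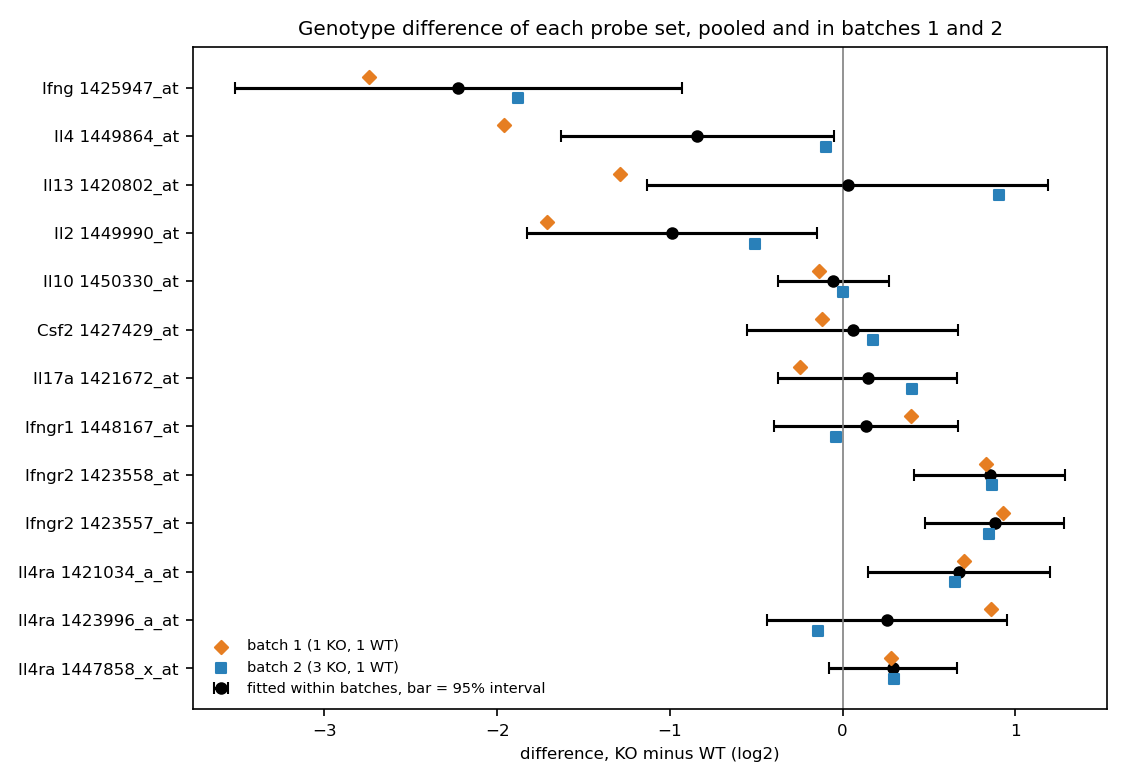
Difference between Utx knockout and Utx wildtype (log2, KO minus WT) for each probe set: the fitted value with its 95% interval, and the values within batch 1 (1 array of each genotype) and within batch 2 (3 knockout arrays and 1 wildtype array). Ifngr2 has nearly the same value in both batches, whereas Il4 has -1.96 in batch 1 and -0.09 in batch 2 and Il13 changes sign.

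Batches 1 and 2 gave the same sign for 7 of the 13 member probe sets, against 64.1% of all probe sets. Those with the same sign were Ifng, Il4, Il2, both of Ifngr2 and 2 of Il4ra. Across probe sets, the deviation of KO1 from the knockout mean correlated with that of WT1 from the wildtype mean at r = -0.916 and with that of WT2 at r = 0.907, over 45037 probe sets that share arrays and are not independent. The sources used here do not say whether the values were adjusted for batch before deposit, and the part of such a step in the batch differences was not tested. Values centred by batch with the genotype kept would show such correlations. Were the values of that kind, the SDs of the groups, the counts of groups that do not overlap and the fits without a batch term would not rest on independent arrays. Among the members, 2 probe sets (Il4 and Il13) had an unadjusted p under 0.05 for a difference between batches by limma and 0 an adjusted one.

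The targeted gene gave no check of the labels. Kdm6a, which encodes Utx, read on its brightest probe set 9.62 to 10.07 in knockout and 9.79 to 10.15 in wildtype cells, and 0 of its 4 probe sets passed limma (adjusted p 0.129 to 0.977, 1 with an unadjusted p under 0.05). That 1, the probe set of lowest level, was higher in knockout cells, at 6.81 to 7.26, against 6.30 to 6.73 in wildtype cells (difference 0.52, SE 0.20). The next brightest probe set leaned lower, at 8.64 to 9.17 in knockout and 9.02 to 9.65 in wildtype cells (difference -0.46, SE 0.23). Its difference was 0.15 in batch 1 and -0.86 in batch 2. The remaining Kdm6a probe set had -0.23, with 0.23 in batch 1 and -0.53 in batch 2. Which part of the gene was deleted is not stated. Array medians were 5.97 to 6.09, and interquartile ranges were 3.79 to 4.29 on knockout arrays and 3.44 to 3.84 on wildtype arrays. Setting equal interquartile ranges scales each array about its median. On arrays of wide range it lowers bright genes and raises dim ones, so values under that setting depend on level. The pan-T cell gene Cd3e averaged 12.85 in knockout and 12.87 in wildtype cells, and Zbtb16, the iNKT lineage factor gene, 10.72 in knockout and 10.95 in wildtype cells. Of 7 T cell and iNKT markers, 7 had negative differences, and 3 fell in knockout cells and 0 rose by limma. Their median was -0.37, with -0.72 in batch 1 and -0.48 in batch 2, and -1.09 with equal interquartile ranges. Cd44, an adhesion receptor of mature iNKT cells, fell by 1.23 on the log2 scale (SE 0.22, adjusted p = 0.0213). The others that fell were Il2rb and Tbx21, which also stand in the pathway lists. Some markers of other cells were higher in knockout samples. Over all 18193 genes, 906 (4.98%) were called higher as reported, and 906 with equal interquartile ranges. Double-positive thymocyte markers had 8 of 8 differences positive, 5 of them called. Their mean level was 11.32 to 11.93 on knockout arrays and 10.13 to 10.62 on wildtype arrays. Their median difference was 1.16, with 1.84 in batch 1 and 0.74 in batch 2. With equal interquartile ranges it was 0.56 and 3 were called. Macrophage and dendritic cell markers had 9 of 12 positive and 3 called (6.01 to 6.84 on knockout and 4.99 to 5.55 on wildtype arrays). Their median difference was 0.94, with 1.92 in batch 1 and 0.39 in batch 2. The called ones were Csf1r, Lyz2 and Cd68. Csf1r, the receptor of a macrophage growth factor, averaged 8.61 in knockout and 4.55 in wildtype cells (difference 4.05, SE 0.55, adjusted p = 0.00874). Lyz2 differed by 1.77 (adjusted p = 0.0313) and Cd68 by 1.54 (adjusted p = 0.0206), while Itgam averaged 3.39 in knockout and 3.38 in wildtype cells and Flt3 4.52 in knockout and 4.58 in wildtype cells. B cell markers had 3 of 4 positive and 2 called (7.27 to 8.23 on knockout and 6.47 to 6.92 on wildtype arrays). Mast cell and basophil markers had 0 of 5 called by limma (1 at an unadjusted p under 0.05), at mean levels of 4.27 to 4.68 on knockout and 4.38 to 5.09 on wildtype arrays. Markers of conventional NK and innate lymphoid cells had 0 of 3 called (1 at an unadjusted p under 0.05), at mean levels of 4.37 to 4.91 on knockout arrays and of at most 4.42 on wildtype arrays. The part of these cells in the levels of Ifngr2, Ifng or any other member was not tested, and in bulk RNA fewer cells of a type and less RNA per cell cannot be told apart.

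Around the members, 5 lists of pathway genes were read with 1 probe set per gene, of which 7.38% passed over all 18193 genes (4.98% higher and 2.4% lower), with a median difference of 0.04. In these lists 6 genes fell in knockout cells and 0 rose. Over all 18193 genes 437 fell as reported, 631 after quantile normalization and 927 with equal interquartile ranges. The median over all genes was 0.02 after quantile normalization and -0.04 with equal interquartile ranges. Counts and medians over all genes are not matched to the lists for level. The part of the scaling in the lower values of bright lists under equal interquartile ranges was not tested.

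Of 11 further receptor chains of the member cytokines, 2 fell, 0 rose and 9 did not pass, with a median of 0.02 that was -0.26 with equal interquartile ranges. Il10ra, the ligand-binding chain of the IL-10 receptor, read 5.48, 5.73, 4.97 and 5.75 in KO1 to KO4, against 7.05, 6.73, 6.63, 7.17 and 6.93 in WT1 to WT5. The groups lay well apart, and Il10ra fell by 1.37 on the log2 scale (SE 0.27, adjusted p = 0.0260). Il2rb, a chain of the receptors for IL-2 and IL-15, fell by 1.01 (SE 0.21, adjusted p = 0.0329). Il10rb had -0.71 (adjusted p = 0.0968) and Il2ra 0.39 (adjusted p = 0.225). The call of Il10ra ended without WT1, KO1 or WT2 (adjusted p 0.0552 to 0.110), and that of Il2rb without any array other than KO2 (0.0544 to 0.0820).

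Of 13 signal transducers and inhibitors, 1 fell and 0 rose, with a median of -0.17 that was -0.62 in batch 1 and 0.21 in batch 2. After quantile normalization it was -0.35 and with equal interquartile ranges -0.45, and 2 fell in each (631 and 927 of all 18193 genes). Ptpn6, which encodes the phosphatase SHP-1, a brake on cytokine receptor and T cell receptor signals, read 10.81, 11.04, 10.79 and 10.76 in KO1 to KO4, against 11.85, 11.69, 11.66, 11.95 and 11.65 in WT1 to WT5. The wildtype arrays were all higher, and Ptpn6 fell by 0.91 (SE 0.17, adjusted p = 0.0240). The call was lost without WT1, WT2, KO1, KO3 or KO4 (adjusted p 0.0516 to 0.103). Socs5, an inhibitor of IL-4 signalling, had -0.62 and lay at the threshold (adjusted p = 0.0501). Stat6, the transducer of IL-4, had 0.50 (adjusted p = 0.304), and Jak1 -0.23 (adjusted p = 0.432).

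Of 10 other T cell cytokines, 1 fell and 0 rose, with a median of -0.23 that was -0.46 in batch 1 and -0.06 in batch 2. It was -0.11 after quantile normalization and -0.09 with equal interquartile ranges. Xcl1, which encodes the chemokine lymphotactin, read 9.48, 10.48, 9.43 and 9.84 in KO1 to KO4, against 11.69, 11.06, 11.34, 11.47 and 11.33 in WT1 to WT5. Xcl1 fell by 1.57 (SE 0.32, adjusted p = 0.0301), with KO2 nearest to the wildtype arrays. The call ended without any array other than WT2 and KO2 (adjusted p 0.0538 to 0.0725). Tnf had -0.46 (adjusted p = 0.280) and Ltb, lymphotoxin beta, -0.79 (adjusted p = 0.117). The levels of 4 of the 10 lay below the 25th percentile of all probe sets.

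Of 14 transcription factors known to act on cytokine genes, 2 fell and 0 rose, with a median of -0.38 that was -0.79 in batch 1 and -0.07 in batch 2. After quantile normalization 5 fell (631 of all 18193 genes). With equal interquartile ranges 6 fell (927 of all 18193 genes) and the median was -0.75. Tbx21 encodes T-bet, which drives Ifng. It read 10.47, 11.05, 10.25 and 10.44 in KO1 to KO4, against 11.73, 11.54, 11.64, 11.80 and 11.48 in WT1 to WT5. As for Ifng, KO3 was the lowest array, whereas KO2 and not KO4 was the highest of the knockout arrays. Tbx21 fell by 1.08 (SE 0.24, adjusted p = 0.0386), and Maf, an activator of Il4, by 0.80 (SE 0.20, adjusted p = 0.0488). Both calls ended without any array other than KO2 (adjusted p 0.0612 to 0.152 for Tbx21 and 0.0677 to 0.131 for Maf). Runx3, which acts with T-bet on Ifng, had -1.25 and lay at the threshold (adjusted p = 0.0507), and Gata3, the factor of type 2 cytokines, had 0.08 (adjusted p = 0.827).

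Of 18 genes that interferon gamma induces, 0 passed limma in either direction. At an unadjusted p under 0.05 there were 4, beside 5293 of all 18193 genes. The list had 11 negative and 7 positive differences and a median of -0.13. Over these genes the mean level was 8.95 to 9.27 on knockout arrays and 9.02 to 9.38 on wildtype arrays. Irf1, an early transcription factor of this response, had -0.47 (adjusted p = 0.153), and Gbp7, a guanylate-binding protein gene, had -0.53 (adjusted p = 0.127). Cxcl9, a chemokine gene mainly of myeloid cells, had 0.63 (adjusted p = 0.146), and Ciita had 0.62 (adjusted p = 0.156). The median was -0.46 in batch 1 and 0.11 in batch 2. With equal interquartile ranges it was -0.54 and 3 of the 18 genes fell, beside 927 of all 18193 genes.

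**Figure D3:**
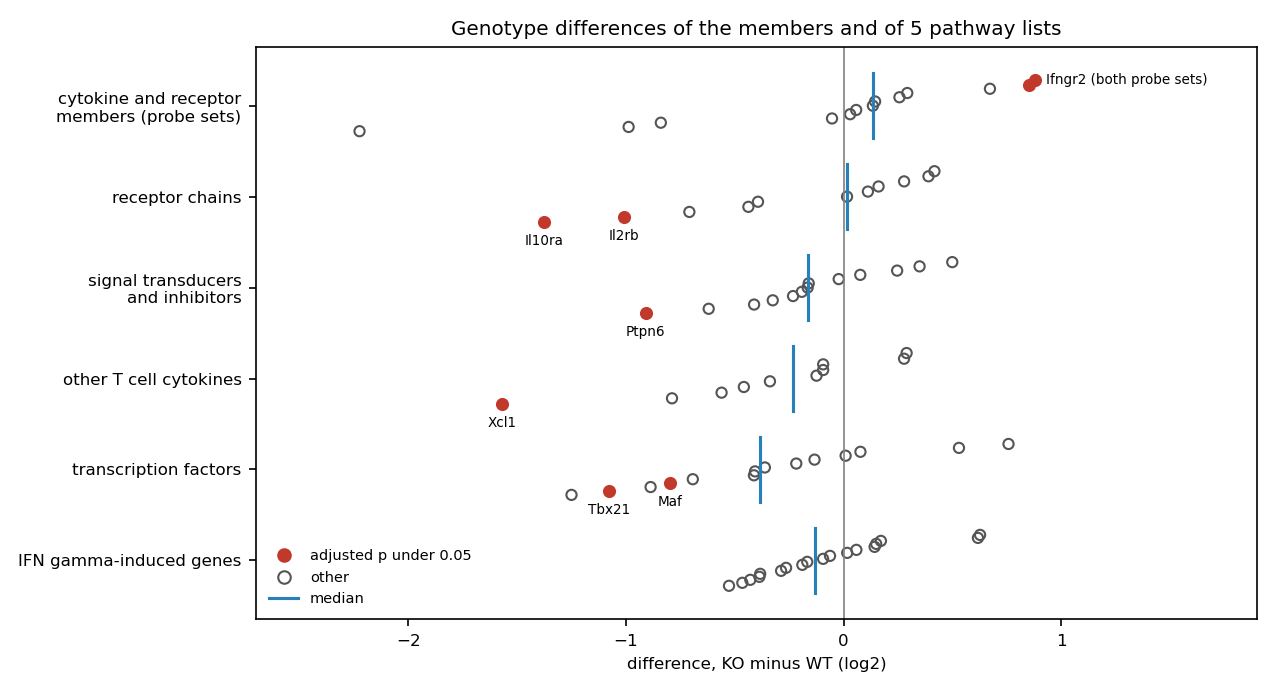
Difference (log2, KO minus WT) of each member probe set and of each gene in the 5 pathway lists, filled where the adjusted p was under 0.05, with the median of each list as a bar. The calls are 2 higher probe sets of Ifngr2 and 6 lower genes.

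Profiles most like those of the 2 signature cytokines were found by the root mean square difference of centred log2 levels over the 9 arrays, among 14519 other genes above the 25th percentile of level. For Ifng these were Klra5 (0.33), Ctla2a (0.46) and Wdr95 (0.47), where the median gene had 1.30. For Il4 they were Trpm6 (0.11), Synpo (0.12) and Iffo2 (0.13), where the median gene had 0.62. The choice of these genes fixes that their KO minus WT differences lie near those of Ifng and Il4. For the 3 genes like Ifng they were -2.54, -2.45 and -1.82, and for the 3 like Il4 they were -0.75, -0.92 and -0.83.

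**Figure D4:**
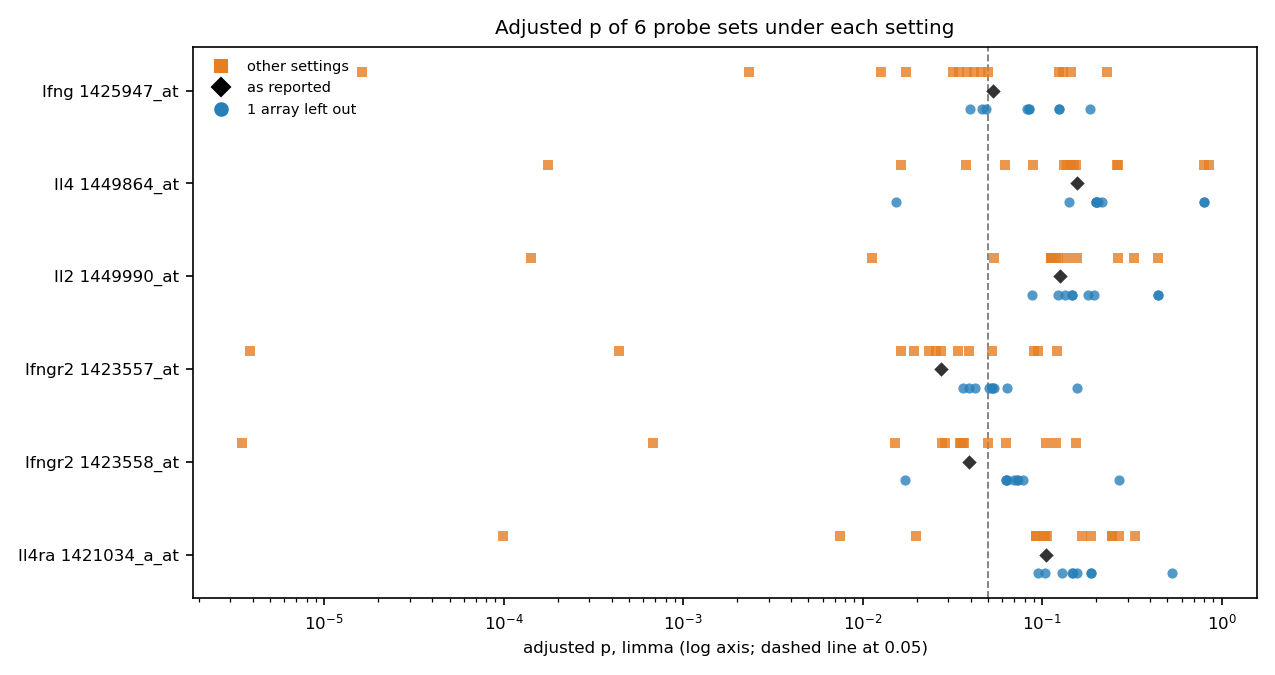
Adjusted p from limma (log axis, dashed line at 0.05) for 6 member probe sets as reported, with 1 array left out and under other settings. Each of the 6 probe sets lies on both sides of the line, with Il4 under it in 4 settings, Il2 in 2 and Il4ra in 3. Values furthest to the left are from fits without batch as a fixed factor.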

How the data were processed

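RNA of sorted thymic iNKT cells was amplified from small amounts and labelled with biotin, per the labels' protocols, and hybridised to 1 array per sample. The deposited log2 levels, 1 per probe set and array, were made by the authors with RMA (version and any further step not given in the sources used here), per the submitters' processing notes. Both the amplification and the summary over probes may shrink fold changes. The precision is limited by the number of arrays.

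The array's annotation named the probe sets. Each of the 13 member probe sets had the same symbol in the reference gene table, matched by Entrez identifier. The fit used limma (version 3.58.1, R 4.3.3), lmFit and eBayes, on 45037 probe sets without a filter (64 controls left out), with fixed terms for genotype and for the 3 batches. Tests were two-sided, with a Benjamini-Hochberg adjusted p of 0.05 as the threshold. The fit had 5 residual degrees of freedom, to which eBayes added a prior of 3.57. A second fit added a term for a genotype difference that varies between batches 1 and 2. Pathway genes used the probe set of highest mean. The fit was tested on simulated data with independent arrays and the same spread in both genotypes, which the real arrays may not have. No arrays were duplicates: within a group, the closest 2 arrays differed with an SD of 0.30 over probe sets.

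Samples sharing a replicate number did not deviate together (r = -0.916, 0.07, -0.01 and 0.11 for numbers 1 to 4), so the numbers were not taken as pairs. Named are all members, at most 4 genes of smallest p per list among those called, Kdm6a and the 3 genes most like Ifng and Il4. Other list genes were named after their values were seen. The members, lists and rules were chosen with earlier results of these data known. Sequences are from RefSeq (GRCm38.p6).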

Additional observations from a re-analysis of the deposited data

Results flagged for a closer look

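KO4 stood apart on the Ifngr1 probe set, with a level of 10.19 (log2) where the other 3 knockout arrays read 10.83 to 10.88. WT4 stood apart on the Il4ra probe set of lowest level, with 5.58 where the other wildtype arrays read 5.30 to 5.38. Each gap was large for the range of its group by Dixon's test. In all, 26 groups of arrays were examined and 2 stood out so, and chance alone gives about 5% of groups.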

How the results depend on the processing

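The count of member probe sets called, 2 as reported, was 7 with no batch term or with batch as a random block (whose consensus correlation within batch was negative, -0.32), 4 with the replicate block in place of batch or with equal interquartile ranges, and 0 with array weights, without batch 3, without batch 1 and in batch 2 alone. It was 0 to 3 with 1 array left out, and in each other setting, including the median of the probe sets of each gene, it stayed within 1.5 times. A threshold of 0.1 gave 3 member probe sets, beside 7277 of all 45037. All probe sets called, 2882 as reported, were 17763 with no batch term, 29733 with the random block, 10858 with the replicate block, 1634 of 14520 with 1 probe set per gene and a filter at the 25th percentile of the level, 523 with array weights, 385 without batch 3, 5590 without batch 1, 0 in batch 2 alone, and 1048 to 5590 with 1 array left out. Quantile normalization gave 3355 and equal interquartile ranges 4151 of all 45037. Higher probe sets were 58.3% of the calls as reported, and 46.8% with equal interquartile ranges. Pathway genes called, 6 as reported, were 26, 43 and 14 in the first 3 of these settings, 11 after quantile normalization, 16 with equal interquartile ranges, 0 with array weights, without batch 3 and in batch 2 alone, 2 without batch 1, and 1 to 9 with 1 array left out. The count of members whose difference varied between batches 1 and 2 was 0 in each fit that allowed it. No member that passed changed direction. Among the others, Il13 turned to -0.014 after quantile normalization and -0.037 with equal interquartile ranges, and Ifngr1 to -0.049 and -0.36, while Il10 turned to 0.060 and 0.33. In batch 2 alone or without batch 1, Il10 was 0.0012, Ifngr1 -0.040 and the Il4ra probe set of middle level -0.14. With 1 array left out, Il13 ranged from -1.29 to 0.91, Csf2 from -0.12 to 0.18, Il17a from -0.24 to 0.40, Ifngr1 from -0.040 to 0.40, Il10 from -0.13 to 0.0012 and the Il4ra probe set of middle level from -0.14 to 0.86. Without WT1 or KO1 the fit is that without batch 1, and its differences are those of batch 2. Without WT2 the differences are those of batch 1, which has 1 array of each genotype. The cause of these changes was not tested, apart from the fewer arrays or probe sets that some settings use. Arrays of batch 1 and the lone WT2 of batch 2 limit every within-batch value. No paired reading is made of the replicate numbers.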
